A study of Vitis vinifera with 36 samples.

Results

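The berries of the bud sport ‘Nantaihutezao’ were compared with those of its parent ‘Summer Black’ at S6, the stage 7 days after veraison, when grape berries begin to soften and colour. The comparison used the 6 libraries of this stage, of 36 in the series: replicates a, b and c of ‘Nantaihutezao’ and replicates a, b and c of ‘Summer Black’. The sample labels call the bud sport 11-06-25 and the parent Sanbenti, and the cultivar names were matched to them by role. Both were Vitis vinifera vines 3 years old, kept in a plastic film greenhouse. By the study's methods, fertilizer and water were given as normal and pests and diseases were controlled. The labels give only stage and cultivar as treatment. A bud sport is a shoot that carries a somatic change and is multiplied as a clone, so that ‘Nantaihutezao’ stands for 1 line. The study describes this line as maturing earlier than its parent. A cultivar difference and a difference in the progress of ripening therefore cannot be told apart at any stage compared here. The labels give berries as the organ, and the study's methods give pericarp, the skin and flesh. The replicates are described as biological, but nothing says that they came from separate vines, so the p-values measure the spread between these samples, which may be technical.

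During ripening the berry loads sugar, loses its green photosynthetic machinery, loosens its cell walls and builds anthocyanin pigments. Phenylalanine feeds both pigments and stilbenes. Phenylalanine ammonia-lyase (PAL), cinnamate 4-hydroxylase (C4H) and 4-coumarate:CoA ligase (4CL) make coumaroyl-CoA, from which stilbene synthase (STS) makes resveratrol and chalcone synthase (CHS) opens the flavonoid route. Ripening berries also store pathogenesis-related proteins, above all thaumatin-like proteins and chitinases.

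The libraries held 19420763 to 19743771 counts in ‘Nantaihutezao’ and 18086421 to 18252417 counts in ‘Summer Black’. The 10 genes with the most counts took 7.96 to 8.04% of them in ‘Nantaihutezao’ and 5.75 to 5.9% in ‘Summer Black’. Of 27751 genes in the table, 8371 had no read in these libraries and 15442 passed the filter on low counts. The first principal component held 63.5% of the variance. Libraries were also correlated over all genes, on log2 counts per 1000000 without further scaling. The S6 libraries of ‘Summer Black’ had a median r of 0.9939 with ‘Nantaihutezao’ at S5 (veraison) and 0.9915 with it at S6. Those of ‘Nantaihutezao’ at S6 had a median r of 0.9893 with ‘Summer Black’ at S7, the stage after S6. All expression values are CPM, counts per 1000000 of the library size after correction by TMM, which allows for such differences in composition. They compare libraries for 1 gene and not levels between genes. Since bulk tissue of many cell types was sequenced, fewer cells of a type and less RNA per cell cannot be told apart.

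At S6, 415 genes (2.69% of those tested) were higher and 600 (3.89%) were lower in ‘Nantaihutezao’, in all 6.57%. A gene was called at a false discovery rate (FDR, Benjamini-Hochberg) under 0.05 in edgeR's quasi-likelihood test with a log2 fold change beyond 1 in either direction. FDR alone passed 6274 genes (40.6%), 20.1% as higher and 20.5% as lower, and the median log2 fold change of all tested genes was −0.01. With glmTreat, which tests against the fold threshold itself, 191 genes (1.24%) were higher and 125 (0.809%) lower. The values of 999 of the 1015 called genes did not overlap between the cultivars, as did those of 7838 of all tested genes (50.8%).

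The genes that were higher carried far more reads than those that were lower. Genes called higher took 6.46% ± 0.0048 of all counts in ‘Nantaihutezao’ and 2.19% ± 0.0475 in ‘Summer Black’ (SD, n = 3 each). Genes called lower took 0.292% ± 0.0123 in ‘Nantaihutezao’ and 0.777% ± 0.0408 in ‘Summer Black’ (SD, n = 3 each). A mean of at least 100 CPM in either cultivar was reached by 58 of the higher and by 12 of the lower genes. The fold changes themselves were of like size, with median absolute log2 values of 1.45 for higher and 1.43 for lower genes.

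**Figure D1:**
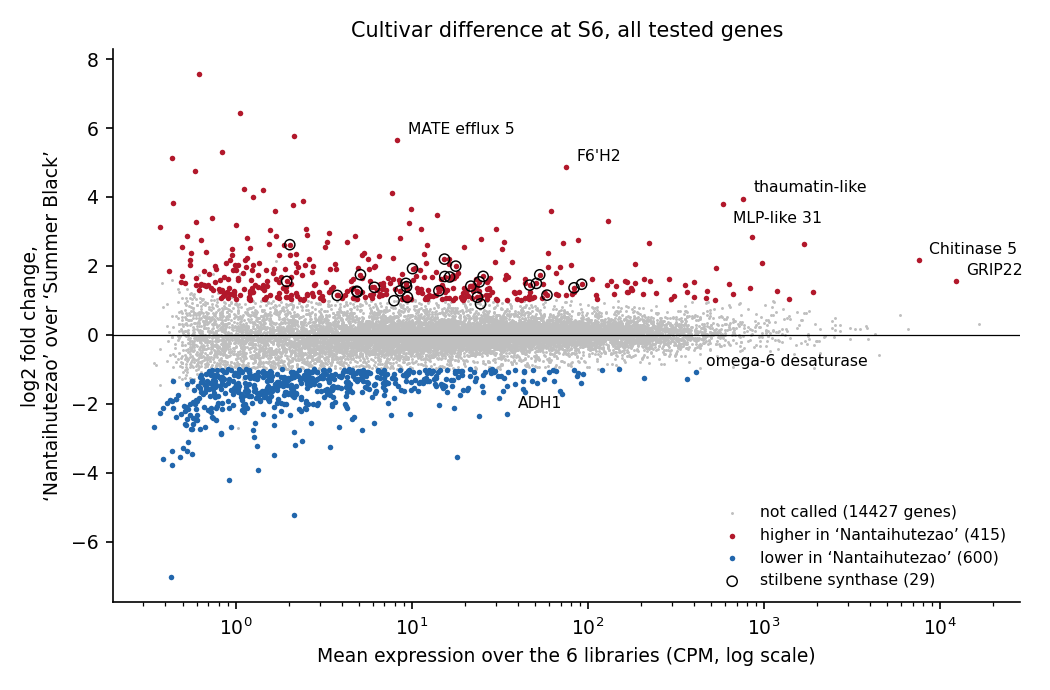
Each point is 1 of the 15442 tested genes, with its mean expression over the 6 libraries (CPM, log scale) across and its log2 fold change, ‘Nantaihutezao’ over ‘Summer Black’, upward. Circles mark 29 stilbene synthases, which all lie above 0. Most of the highly expressed called genes lie above 0, among them GRIP22 at 1.56 and Chitinase 5 at 2.17.

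Most tested genes of the route to stilbenes were higher in ‘Nantaihutezao’. Of 33 genes that Swiss-Prot names as stilbene synthases, 29 were tested and 27 were higher, against 2.69% of all tested genes, and their median log2 fold change was 1.44. The other 2, VIT_16s0100g01110 and VIT_16s0100g01200, had log2 fold changes of 0.99 and 0.90. With glmTreat 17 of the 29 were higher, and with 1 library left out 26 to 29 were. This group was cut from a wider list by name after the values were seen, so it is given as a description. The wider list, which also holds chalcone synthases and ketoacyl-CoA synthases, had 28 higher of 44 tested (63.6%) and a median of 1.27. Its copies are near-identical neighbours, mostly on chromosome 16, so that reads may be split between them and single genes are uncertain.

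Summed over the stilbene synthases, expression was 967, 957 and 1003 CPM in ‘Nantaihutezao’, against 410, 340 and 329 CPM in ‘Summer Black’. The cultivars did not overlap, and the sum was over 2 times as high in each bud sport library as in any parent library. VIT_16s0100g00920 (Stilbene synthase 4), the copy with the highest summed reads, had 131, 138 and 137 CPM in ‘Nantaihutezao’ and 54.8, 46 and 46.2 CPM in ‘Summer Black’. Its log2 fold change was 1.47 (SE 0.06, FDR 5.35e-10, edgeR).

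Of 17 genes named as PAL, the entry enzyme, 13 were tested and 11 were higher (84.6%, against 2.69% of all genes). Over the 13 the median change was 1.67 on the log2 scale. Their summed expression was 1205, 1019 and 1019 CPM in ‘Nantaihutezao’, against 426, 419 and 423 CPM in ‘Summer Black’. The groups lay well apart, with replicate a the highest of the bud sport. VIT_06s0004g02620 had 612, 525 and 513 CPM in ‘Nantaihutezao’ and 249, 262 and 257 CPM in ‘Summer Black’ (log2 fold change 1.10, SE 0.06, FDR 5.8e-09, edgeR). VIT_13s0019g04460 changed more (1.62, SE 0.06), and the exceptions were VIT_11s0016g01520 (0.16, FDR 0.642) and VIT_00s2508g00010 (1.20, FDR 0.0686, edgeR). Without replicate c of ‘Summer Black’ the call of VIT_00s2508g00010 passed at 1.68.

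All 3 C4H genes were higher, with log2 fold changes of 1.05 to 1.34. Of the 2 tested 4CL genes, VIT_11s0052g01090 was higher at 285, 275 and 265 CPM in ‘Nantaihutezao’, against 107, 93.8 and 91.4 CPM in ‘Summer Black’ (1.5, SE 0.06, FDR 2.36e-10, edgeR). The other, VIT_16s0039g02040, reached 0.58 and did not pass the fold threshold.

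**Figure D2:**
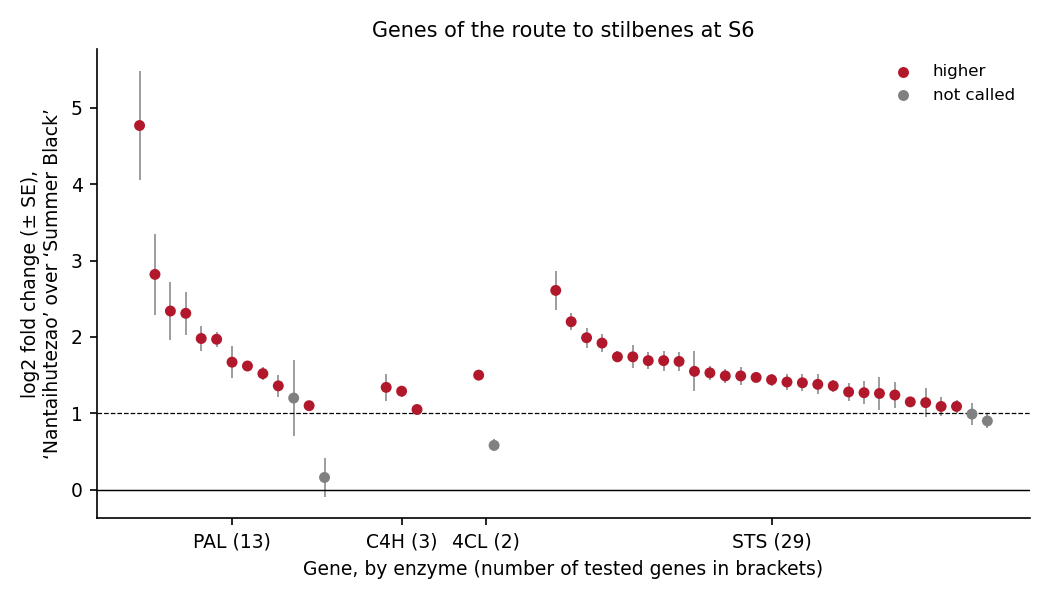
Each point is the log2 fold change of 1 tested gene at S6, ‘Nantaihutezao’ over ‘Summer Black’, with its standard error as a bar, for 13 PAL, 3 C4H, 2 4CL and 29 STS genes. The dashed line is the fold threshold at 1. Of the STS genes 27 lie above it, and the PAL genes reach 4.77.

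MYB14, a grapevine R2R3-MYB factor known to switch on stilbene synthase promoters, did not pass the fold threshold. VIT_07s0005g03340 (MYB14 in RefSeq) had 17.7, 23.3 and 20.1 CPM in ‘Nantaihutezao’, against 10.5, 11.7 and 9.32 CPM in ‘Summer Black’. Its log2 fold change was 0.96 (SE 0.12, FDR 1.68e-05, edgeR), and it passed, at up to 1.05, without replicate a of ‘Nantaihutezao’ or replicate b of ‘Summer Black’. VIT_05s0049g01020, which Swiss-Prot describes as Myb4-related, was listed here with MYB14 as a stilbene regulator, under the name MYB15. It was called higher, with 56.2, 56.6 and 60.3 CPM in ‘Nantaihutezao’, against 9.16, 9.19 and 8.53 CPM in ‘Summer Black’. The cultivars lay far apart in every library, at a log2 fold change of 2.69 (SE 0.07, FDR 5.8e-12, edgeR).

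Genes of other branches from phenylalanine were higher too. VIT_03s0063g01330, described as feruloyl-CoA ortho-hydroxylase 2, an enzyme of coumarin synthesis in Arabidopsis, had 152, 144 and 141 CPM in ‘Nantaihutezao’ and 5.06, 4.81 and 5.14 CPM in ‘Summer Black’. Its log2 fold change was 4.86 (SE 0.07, FDR 5.81e-15, edgeR). VIT_07s0031g00350, a caffeoyl-CoA O-methyltransferase of the lignin branch, had 226, 238 and 243 CPM in ‘Nantaihutezao’, against 22.6, 25.4 and 23.7 CPM in ‘Summer Black’ (3.30, SE 0.06). In neither gene did the cultivars overlap, which is a condition for naming the largest changes. A pair of phenylalanine N-monooxygenases, which turn phenylalanine into its oxime, were higher as well: VIT_06s0009g03120 by 3.6 and VIT_13s0106g00280 by 3.64 on the log2 scale. Nitrilases VIT_02s0033g00790 and VIT_02s0033g00850, which act on nitriles, were higher by 2.55 and 1.55.

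The KEGG map of phenylpropanoid biosynthesis had 22 higher (28.6%) and 6 lower (7.79%) genes of 77 tested, against 2.69 and 3.89% of all genes. Its median log2 fold change was 0.57. Caffeic acid O-methyltransferase VIT_02s0025g02920 (1.47) and CYP98A2-like VIT_08s0040g00780 (1.74), both of the monolignol route, were among the higher genes. The lower ones included peroxidase VIT_11s0016g05320 (−1.5, SE 0.19), alpha-N-arabinofuranosidase VIT_06s0009g00810 (−1.07, SE 0.07) and probable mannitol dehydrogenase VIT_00s0346g00090 (−1.37, SE 0.21). Over all genes named peroxidases, 4 of 26 tested were lower, against 3.89% of all genes. One of them, VIT_06s0004g01180 (−1.23), lost its call without replicate b or c of ‘Nantaihutezao’ or replicate a of ‘Summer Black’, with values of −0.97 to −1.76 over the 6 libraries left out in turn. The summed level of the peroxidases ran the other way, at 5676, 5792 and 5744 CPM in ‘Nantaihutezao’, against 4731, 4611 and 4557 CPM in ‘Summer Black’. FDR alone passed 9 of them as higher and 7 as lower, against 20.1 and 20.5% of all genes, and their median was 0.09.

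The measured genes of the anthocyanin branch differed by less than the fold threshold at this stage, most of them upward. MYBA1, MYBA2, GST4 and anthoMATE3 were also listed by identifier, but the data hold no gene under their identifiers. Of 10 tested genes given by identifier, edgeR passed 9 as higher and 1 as lower by FDR alone, against 20.1 and 20.5% of all genes. No call at the fold threshold was made by edgeR or DESeq2, and the median was 0.50. Their summed expression was 7610, 7264 and 7321 CPM in ‘Nantaihutezao’, against 5591, 5384 and 5185 CPM in ‘Summer Black’. At an unadjusted p under 0.05 the same split of 9 and 1 was seen, against 3703 and 3767 of all 15442 tested genes. UFGT (VIT_16s0039g02230), which glucosylates anthocyanidins, had 561, 495 and 494 CPM in ‘Nantaihutezao’ and 448, 429 and 432 CPM in ‘Summer Black’ (0.24, SE 0.05, FDR 0.00161). The largest, VIT_02s0033g00450, described as transcription factor MYB114, reached 0.83 (SE 0.06). The methyltransferase VIT_01s0010g03510, which methylates anthocyanins, was the 1 below 0, at −0.25.

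CHS 2 (VIT_05s0136g00260) had 7554, 6880 and 6769 CPM in ‘Nantaihutezao’, against 4880, 4733 and 4598 CPM in ‘Summer Black’. The libraries of the cultivars did not overlap, yet the log2 fold change was 0.58 (SE 0.04, FDR 1.35e-07, edgeR) and under the fold threshold. Of 3 genes the study names as chalcone synthases, 1 was called, VIT_16s0022g01070 (1.55, SE 0.26), which Swiss-Prot names Stilbene synthase 5 and which is also counted among the 29 stilbene synthases. The KEGG flavonoid map had 33 higher genes of 59 tested (55.9%, against 2.69% of all genes). With the stilbene synthases that KEGG files there left out, which was done after the values were seen, 6 of 30 were (20%). MYBPA1 (VIT_15s0046g00170), a grapevine regulator of tannin synthesis, was higher at 213, 248 and 252 CPM in ‘Nantaihutezao’, against 106, 102 and 94.5 CPM in ‘Summer Black’ (1.23, SE 0.07). MYB12 (VIT_07s0005g01210), of the flavonol regulators, was lower (−1.45, SE 0.27).

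Ripening and pathogenesis-related proteins were prominent among the higher genes with the most reads. GRIP22 (VIT_06s0004g02560), a grape ripening-induced protein, had 18749, 18120 and 18266 CPM in ‘Nantaihutezao’, against 6289, 6381 and 6061 CPM in ‘Summer Black’ (1.56, SE 0.03, FDR 2.29e-13, edgeR). Chitinase 5 (VIT_05s0094g00340), which cleaves chitin, had 11681, 12758 and 12659 CPM in ‘Nantaihutezao’, against 2825, 2717 and 2724 CPM in ‘Summer Black’ (2.17, SE 0.04). Both were far above the parent in each of the 3 libraries. Its neighbour VIT_05s0094g00350, also described as Chitinase 5, was higher by 1.23, and the reads of this pair may be shared. Of 18 tested chitinases 7 were higher (38.9%, against 2.69% of all genes), with a median of 0.76.

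Thaumatin-like proteins, antifungal proteins of the berry, went both ways, with 3 higher and 3 lower of 15 tested (20% each, against 2.69 and 3.89% of all genes). VIT_02s0025g04310 had 1498, 1398 and 1387 CPM in ‘Nantaihutezao’, against 145, 68.9 and 63.1 CPM in ‘Summer Black’ (3.95, SE 0.23, FDR 1.09e-08, edgeR). Replicate a of the parent stood above its other libraries but far below the bud sport. VIT_02s0025g04330 was higher by 1.94 and VIT_02s0025g04340, osmotin-like, by 1.10, the last not called without replicate c of ‘Summer Black’ (1.0). The lower ones had few reads, such as VIT_17s0000g02470 at 0.37, 0.32 and 0.587 CPM in ‘Nantaihutezao’ and 5.11, 3.91 and 2.81 CPM in ‘Summer Black’ (−3.19, SE 0.33).

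Of 12 tested Bet v 1 and MLP-like proteins, a family of small proteins that bind hydrophobic ligands, 6 were higher, against 2.69% of all genes. MLP-like protein 31 (VIT_01s0011g05180) had 993, 1151 and 1132 CPM in ‘Nantaihutezao’, against 82.4, 80.5 and 73.1 CPM in ‘Summer Black’ (3.79, SE 0.07, FDR 5.15e-14, edgeR). A glycine-rich protein (VIT_19s0090g01370) had 2714, 2959 and 2991 CPM in ‘Nantaihutezao’, against 480, 466 and 451 CPM in ‘Summer Black’ (2.63, SE 0.05). Neither overlapped between the cultivars, as was so in 50.8% of all tested genes. Early nodulin-75 (VIT_05s0049g00570) had 2334, 1595 and 1654 CPM in ‘Nantaihutezao’, against 893, 889 and 941 CPM in ‘Summer Black’ (1.04, SE 0.10). Its call rested on replicate a of the bud sport, without which the value was 0.84.

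**Figure D3:**
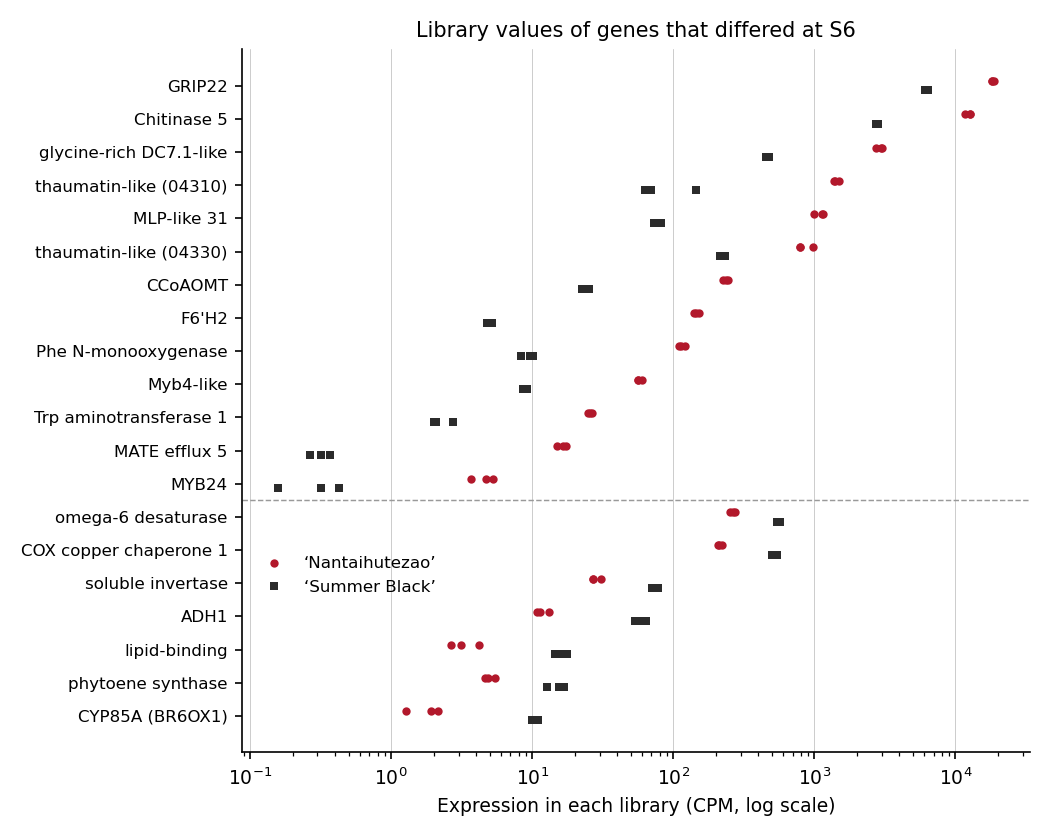
Each row is 1 gene and each point 1 library at S6 (CPM, log scale), with ‘Nantaihutezao’ as circles and ‘Summer Black’ as squares. Genes above the dashed line were higher and those below it lower in ‘Nantaihutezao’. The libraries of the cultivars do not overlap in any row shown. This was a condition for naming the largest changes, and it holds for 50.8% of all tested genes.

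Several genes with few reads in ‘Summer Black’ were much higher in ‘Nantaihutezao’. MATE efflux family protein 5 (VIT_16s0100g00460), of a family of metabolite exporters, had 17.3, 16.4 and 14.9 CPM in ‘Nantaihutezao’, against 0.32, 0.37 and 0.265 CPM in ‘Summer Black’ (5.64, SE 0.18, FDR 2.74e-11, edgeR). 3-ketoacyl-CoA synthase 19 (VIT_07s0141g00090), of fatty acid elongation, was higher by 4.10. Tryptophan aminotransferase VIT_00s0225g00230, of auxin synthesis, was higher by 3.49 at 25.7, 26.3 and 25 CPM in ‘Nantaihutezao’, against 2.02, 2.75 and 2.07 CPM in ‘Summer Black’. Each of these was high in all bud sport libraries and low in those of the parent. The lysine histidine transporter-like gene VIT_06s0009g01140 had no read in ‘Summer Black’ and was at least 23.3-fold higher, taking 3 counts over the group as the floor.

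Of the 5 lower genes with the most reads, 2 had no description, VIT_03s0038g01510 and VIT_13s0101g00220. The call of VIT_03s0038g01510 lay at the fold threshold (−1.0) and was lost without replicate a of ‘Nantaihutezao’ or replicate a or b of ‘Summer Black’ (−0.94 to −1.08 over the 6 libraries left out in turn), and under DESeq2 and the replicate block. An omega-6 fatty acid desaturase (VIT_08s0007g06450), which makes linoleate, had 252, 275 and 264 CPM in ‘Nantaihutezao’, against 542, 569 and 553 CPM in ‘Summer Black’ (−1.07, SE 0.04, FDR 3.88e-10, edgeR). Cytochrome c oxidase copper chaperone 1 (VIT_19s0014g02730) had 206, 220 and 210 CPM in ‘Nantaihutezao’, against 499, 540 and 512 CPM in ‘Summer Black’ (−1.29, SE 0.05). A chloroplastic fructose-bisphosphate aldolase (VIT_04s0023g03010), also of these 5, had 76.3, 79 and 81.8 CPM in ‘Nantaihutezao’, against 167, 163 and 153 CPM in ‘Summer Black’ (−1.03, SE 0.05). Its call was lost without replicate a of ‘Summer Black’ (−1.0). Alcohol dehydrogenase 1 (VIT_04s0044g01120), of fermentation and not of these 5, had 11.4, 10.8 and 13.1 CPM in ‘Nantaihutezao’, against 53.5, 63.8 and 56.4 CPM in ‘Summer Black’ (−2.30, SE 0.09). All were separated without overlap, as was so in 50.8% of all tested genes. VIT_13s0101g00220 had 209, 77 and 78.8 CPM in ‘Nantaihutezao’ and 488, 88.7 and 301 CPM in ‘Summer Black’. These values overlapped between the cultivars, and the call (−1.27) was lost with any of 4 libraries left out, at −0.68 to −1.91 over all 6 (‘Nantaihutezao’ b or c, ‘Summer Black’ a or c).

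Starch and sucrose genes counted 4 higher (3.51%) and 8 lower (7.02%) of 114 tested, against 2.69 and 3.89% of all genes, with a median of −0.04. A soluble acid invertase (VIT_16s0022g00670), which splits sucrose, had 30.6, 26.9 and 26.9 CPM in ‘Nantaihutezao’, against 77.7, 74.7 and 70.9 CPM in ‘Summer Black’ (−1.40, SE 0.07, FDR 1.21e-09, edgeR). A sucrose-phosphate synthase (VIT_05s0029g01140), which makes sucrose phosphate, was lower (−1.17, SE 0.11). Sugar transporter ERD6-like 16 (VIT_05s0020g02170) was higher by 1.68 (SE 0.07), and galactinol-sucrose galactosyltransferase VIT_14s0066g00810, of raffinose synthesis, was lower (−1.35, SE 0.12). In the citrate cycle no gene of 46 was called by edgeR or DESeq2. FDR alone passed 27 as higher and 1 as lower, against 20.1 and 20.5% of all genes, and the median was 0.19. At an unadjusted p under 0.05, 30 were higher and 1 lower.

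Cell wall genes differed in both directions. Expansins, which loosen walls, were lower in 4 of 16 tested genes, against 3.89% of all genes. The summed level of the family ran the other way, at 3330, 3235 and 3272 CPM in ‘Nantaihutezao’, against 2637, 2527 and 2513 CPM in ‘Summer Black’, and the 4 lower genes had under 7 CPM in every library. The expansin-like VIT_00s1455g00010 had 0.159, 0.0534 and 0.107 CPM in ‘Nantaihutezao’, against 1.76, 4.44 and 6.41 CPM in ‘Summer Black’ (−5.22, SE 0.59). VIT_00s0309g00050, also expansin-like, had no read in ‘Nantaihutezao’ and was at least 16.3-fold lower, with the floor of 3 counts over the group.

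Xyloglucan endotransglucosylases, which cut and rejoin hemicellulose, had 4 higher (21.1%) and 1 lower (5.26%) of 19, against 2.69 and 3.89% of all genes. VIT_06s0061g00550 had 475, 427 and 413 CPM in ‘Nantaihutezao’, against 139, 144 and 143 CPM in ‘Summer Black’ (1.62, SE 0.05, FDR 3.25e-11, edgeR), with no overlap. Pectin enzymes had 8 higher (18.6%) and 4 lower (9.3%) of 43. Pectate lyase VIT_17s0000g09810 was higher by 1.25 (SE 0.06) and pectinesterase 12 VIT_11s0016g00300 lower (−1.76, SE 0.11). Beta-galactosidase 3 (VIT_07s0031g02480) was lower at 29.2, 26.7 and 25.6 CPM in ‘Nantaihutezao’, against 72.6, 67.7 and 67.1 CPM in ‘Summer Black’ (−1.35, SE 0.06).

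Photosynthesis genes shifted down by less than the fold threshold. Of 44 genes of the photosynthesis map 3 were lower (6.82%, against 3.89% of all genes), and the median was −0.45. FDR alone passed 29 as lower and 3 as higher, against 20.5 and 20.1% of all genes. Photosystem I subunit XI (VIT_04s0023g00410) had 37.8, 38 and 40.8 CPM in ‘Nantaihutezao’, against 83.8, 82.9 and 78.6 CPM in ‘Summer Black’ (−1.07, SE 0.05, FDR 3.12e-09, edgeR). Antenna proteins, which harvest light, summed to 533, 529 and 522 CPM in ‘Nantaihutezao’ and to 744, 756 and 720 CPM in ‘Summer Black’. Both showed every bud sport library below every parent library. Green tissue markers (Rubisco small subunit and light-harvesting proteins) had 3 of 23 lower (13%, against 3.89% of all genes), with a median of −0.51. They summed to 1611, 1675 and 1653 CPM in ‘Nantaihutezao’ and 2257, 2241 and 2160 CPM in ‘Summer Black’. Seed storage and oil body genes summed to 22.4, 21.6 and 18.5 CPM in ‘Nantaihutezao’ and 27.2, 27.5 and 25.9 CPM in ‘Summer Black’. Their part in the results was not tested.

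Plastid and nitrogen enzymes were among the lower genes. Phytoene synthase (VIT_04s0079g00680), the first step of carotenoid synthesis, had 5.45, 4.86 and 4.59 CPM in ‘Nantaihutezao’, against 15.4, 16.8 and 12.7 CPM in ‘Summer Black’ (−1.59, SE 0.13, FDR 3.21e-07, edgeR). Carotenoid genes had 4 lower of 25 (16%, against 3.89% of all genes). Their summed level overlapped, at 1148, 1091 and 1076 CPM in ‘Nantaihutezao’ and 1143, 1168 and 1167 CPM in ‘Summer Black’. NCED1 (VIT_10s0003g03750), which cuts carotenoids in the making of abscisic acid, was lower (−1.43, SE 0.17). Nitrogen metabolism had 4 lower (18.2%) and 1 higher (4.55%, against 2.69% of all genes) of 22. Its summed level ran the other way, at 2723, 2696 and 2630 CPM in ‘Nantaihutezao’, against 2325, 2465 and 2516 CPM in ‘Summer Black’. Nitrate reductase (VIT_18s0001g03910) had 9.42, 6.51 and 6.14 CPM in ‘Nantaihutezao’, against 21.7, 19.1 and 18.4 CPM in ‘Summer Black’ (−1.42, SE 0.14), and nitrate transporter 2.5 (VIT_01s0127g00070) was higher by 1.63 (SE 0.08).

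KEGG's map of hormone signalling had 5 higher (3.42%) and 12 lower (8.22%) genes of 146, against 2.69 and 3.89% of all genes. The brassinosteroid oxidase gene BR6OX1 (VIT_14s0083g01110) had 1.91, 1.28 and 2.14 CPM in ‘Nantaihutezao’, against 9.96, 11 and 10.3 CPM in ‘Summer Black’ (−2.55, SE 0.17, FDR 3.91e-08, edgeR). Auxin response factor 1 (VIT_18s0089g00910) was lower (−1.10, SE 0.05), and the abscisic acid receptor PYL1 (VIT_02s0012g01270) was higher by 1.75 (SE 0.12). Zeaxanthin epoxidase (VIT_04s0044g00220), an earlier step of abscisic acid synthesis, was called at 1.03 but not without replicate a of ‘Nantaihutezao’ or replicate c of ‘Summer Black’, where the lowest value was 0.98. ARG7 genes VIT_16s0098g01150 and VIT_11s0016g00520, auxin-induced, stood at 1.01 each. Leaving out 1 library moved them to as low as 0.92 and 0.94, ending the calls (a of ‘Nantaihutezao’ or b or c of ‘Summer Black’ in the one, b or c of ‘Nantaihutezao’ or a or b of ‘Summer Black’ in the other).

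The families of transcription factors were counted beside the shares of all genes, 2.69% higher and 3.89% lower, and were not tested against each other. WRKY factors, regulators of defence genes, had 6 higher of 48 (12.5%), among them WRKY 11 (VIT_11s0052g00450) at 29.1, 27.2 and 29 CPM in ‘Nantaihutezao’ and 13.1, 11 and 8.95 CPM in ‘Summer Black’ (1.37, SE 0.11, FDR 3.36e-07, edgeR). bHLH factors had 6 lower (12.8%) and 1 higher of 47, NAC factors 5 lower (13.2%) and 1 higher of 38, and AP2/ERF factors 6 lower (10.7%) and 3 higher of 56. MYB factors, with 7 lower (5.3%) and 3 higher (2.27%) of 132, were near the shares of all genes. MYB24 (VIT_14s0066g01090), a MYB of late flower and berry development, had 3.65, 4.7 and 5.28 CPM in ‘Nantaihutezao’, against 0.426, 0.158 and 0.318 CPM in ‘Summer Black’ (3.89, SE 0.32).

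Ranked by share of called genes, the maps with the most higher genes were flavonoid biosynthesis (55.9%), circadian rhythm (48.2%), phenylpropanoid biosynthesis (28.6%) and phenylalanine metabolism (26.7%). The circadian map owes its place to the stilbene and chalcone synthases that KEGG files in it. Without them, a cut made after the values were seen, no gene of 25 was called by edgeR or DESeq2, and 3 were higher and 8 lower at an unadjusted p under 0.05. The maps with the highest share of lower genes were nitrogen metabolism (18.2%) and carotenoid biosynthesis (16%). Of 84 maps with at least 20 tested genes 21 had no called gene. Ribosome genes leaned lower by less than the fold threshold. FDR alone passed 78 of 259 as lower and 8 as higher, against 20.5 and 20.1% of all genes. Their median was −0.1, and the 1 called gene was higher.

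**Figure D4:**
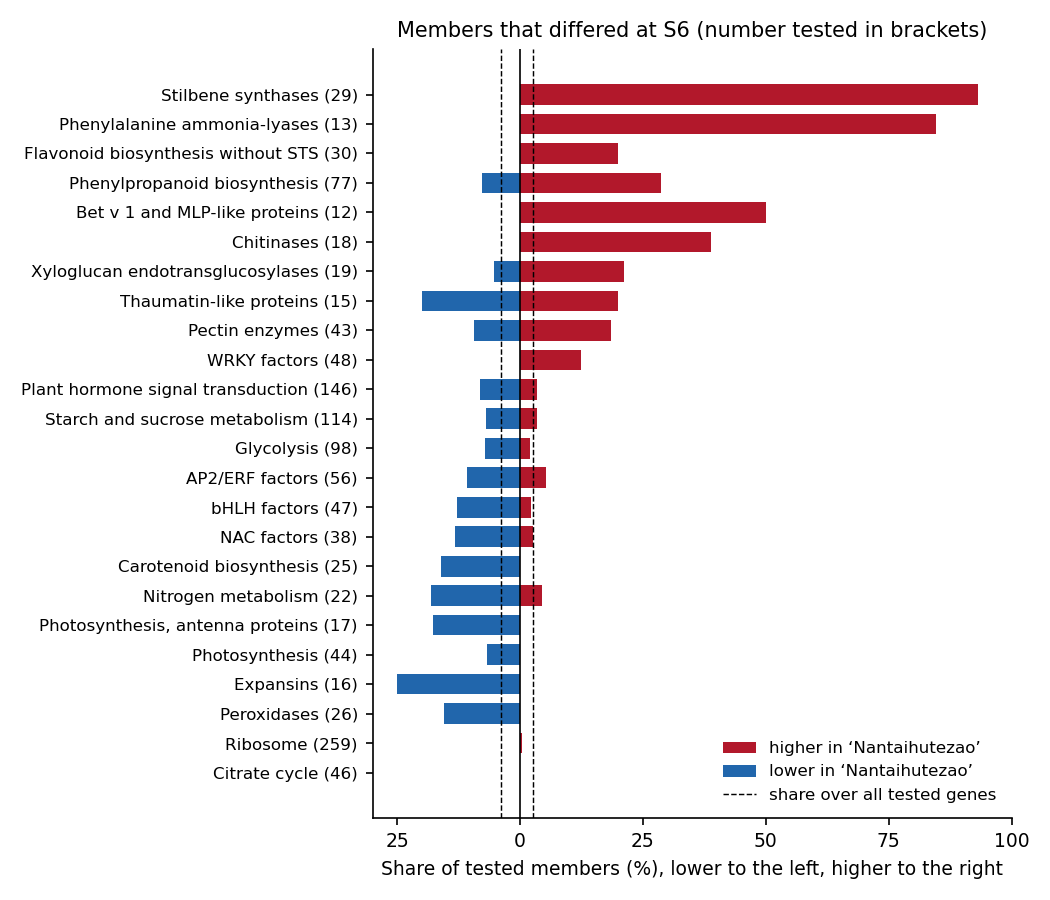
Bars give the share (%) of the tested members of each gene list that was higher (right) or lower (left) in ‘Nantaihutezao’ at S6, with the number tested in brackets. Dashed lines are the shares over all tested genes, 2.69% and 3.89%. Stilbene synthases and PAL stand farthest to the right, and expansins farthest to the left.

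The difference at S6 was set against that at S5, at veraison, and at S7, a further 7 days on, in 1 fit of all 36 libraries. That fit called 2687 genes between the cultivars at S5 (16%), 1159 at S6 (6.88%) and 1461 at S7 (8.67%). Of the S6 genes 612 were also called at S5 (52.8% of the S6 and 22.8% of the S5 genes), of which 539 had the same direction. With S7 the number was 605 (52.2% of the S6 and 41.4% of the S7 genes), and 592 had the same direction. The difference itself changed for 2018 genes (12%) between S5 and S6 and for 612 (3.63%) between S6 and S7.

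The anthocyanin genes were the clearest case. The cultivar difference was smaller at S6 than at S5 in 8 of the 10 listed genes in the data, against 6.91% of all genes lower in this contrast. The median effect was 3.13 at S5, 0.50 at S6 and −0.08 at S7. UFGT (VIT_16s0039g02230) had 350, 385 and 380 CPM in ‘Nantaihutezao’ at S5, against 6.45, 7.28 and 6.82 CPM in ‘Summer Black’ (5.76). At S6 the values were close, and the difference changed by −5.52 (SE 0.09, FDR 1.18e-31, edgeR). At S5 every library of ‘Nantaihutezao’ was far above ‘Summer Black’, and at S6 the parent lay just below the bud sport.

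The difference in PAL genes was higher at S6 than at S5 in 8 of 15, against 5.07% of all genes, with median effects of 0.17 at S5, 1.62 at S6 and 2.06 at S7. The difference in stilbene synthases was lower at S6 than at S7 in 12 of 29, against 1.61% of all genes, with medians of 1.40, 1.44 and 2.46 at S5, S6 and S7. In WRKY factors the signed difference was higher at S6 than at S5 in 17 of 55, against 5.07% of all genes. Their medians were −0.29, 0.14 and 0.17 at S5, S6 and S7, from below the parent to slightly above it. The Myb4-related gene VIT_05s0049g01020 had its largest difference at S6 of these 3 stages, at 2.03, 2.69 and 1.0, and the change to S7 was called (1.68, SE 0.11, FDR 6.4e-14, edgeR). MYB14 (VIT_07s0005g03340) had 32, 33.2 and 29.6 CPM in ‘Nantaihutezao’ at S5, against 51.1, 54.6 and 51 CPM in ‘Summer Black’, so its difference turned from −0.73 at S5 to 0.96 at S6 (change 1.68, SE 0.13).

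**Figure D5:**
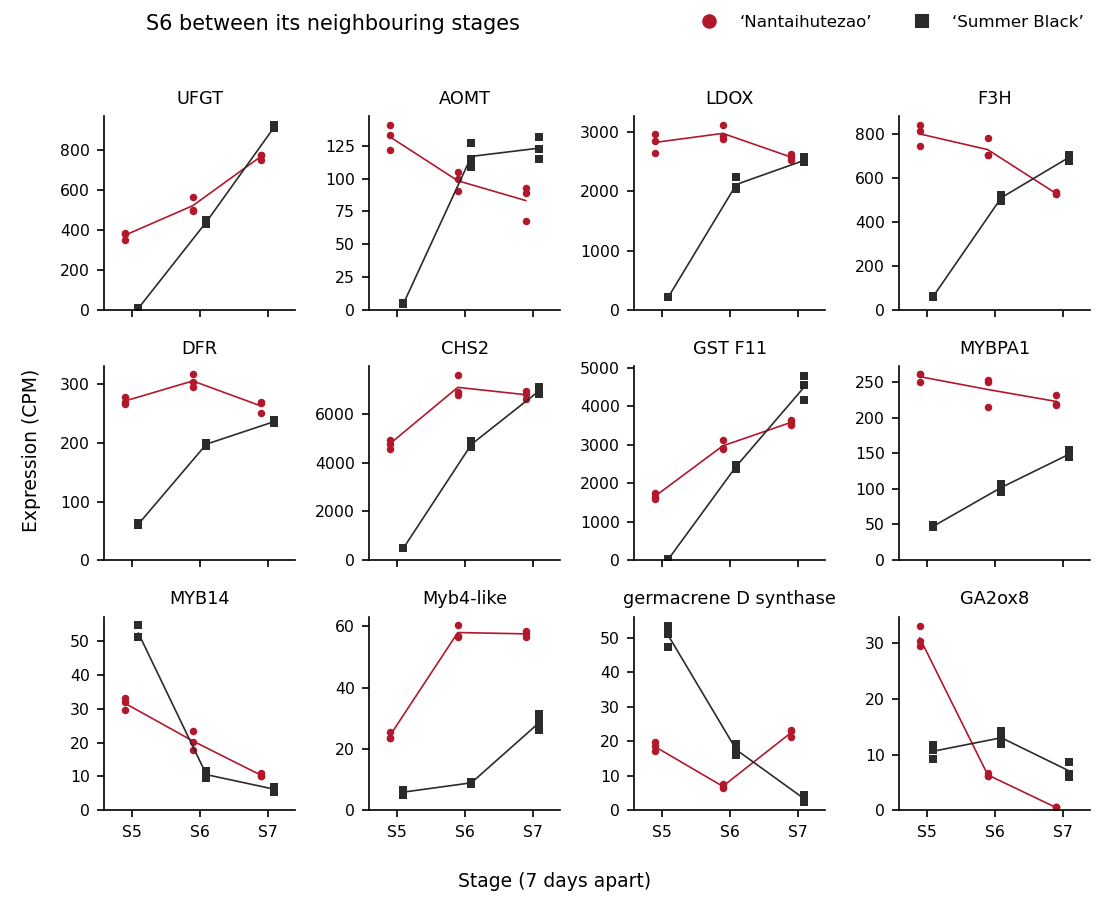
Each panel is 1 gene, with library values (CPM) at S5, S6 and S7, taken 7 days apart, as circles for ‘Nantaihutezao’ and squares for ‘Summer Black’, and lines through the means. In the anthocyanin genes ‘Summer Black’ is well below ‘Nantaihutezao’ at S5 and nearer to it at S6. UFGT is near 0 in ‘Summer Black’ at S5. The germacrene D synthase panel crosses between S6 and S7.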

How the data were processed

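RNA of berries of the bud sport and its parent was sequenced at 6 stages with 3 replicates each. The study's methods say that the authors trimmed the reads and aligned them to the Vitis vinifera genome with TopHat 2, and the build, annotation and counting tool are not given in the sources used here. The authors deposited raw read counts per gene, used here, and FPKM values from Cuffdiff (named in the submitters' processing notes), which were not used. They also deposited log2 fold changes and false discovery rates of 36 comparisons, of which 3 mix the cultivars in one group by their headers and 0 hold this pair. These were not used.

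Genes were kept by filterByExpr (minimum count 10, minimum total count 15), scaled by TMM and tested on the 6 S6 libraries with edgeR 4.0.16 in R 4.3.3 (limma 3.58.1), and called at an FDR under 0.05 with a fold change beyond 1 on the log2 scale. Standard errors were taken as the size of the log2 value over the square root of its F statistic. The contrasts with S5 and S7 came from 1 fit of 36 libraries. Tables and figures used Python 3.11.15, numpy 2.4.6, pandas 2.3.3 and matplotlib 3.10.9. The S6 results were repeated with upper-quartile scaling, with DESeq2 1.42.0, without the filter, in a fit of all libraries, with the replicate block, with glmTreat and without each library. The contrasts were repeated with upper-quartile scaling, without the filter, on the 12 libraries of both stages, with the replicate block and without each library. The steps were tested on simulated data, where 200 of 200 genes changed by 2 on the log2 scale and 3 unchanged genes were called at S6 among 15286 tested, against 197 and 0 with glmTreat. The changed genes were drawn only from those above a minimum mean count. Recovery of genes with fewer counts or of smaller changes was therefore not tested. An exact permutation test of 3 against 3 cannot go below 0.1, so none is given.

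Named genes are the 12 largest changes in each direction with at least 10 CPM and no overlap, up to 3 called genes per list and direction by expression, the genes given by identifier, the 4 largest contrasts per direction and the 5 called genes with the most reads per direction. Of 299 genes described in the tables, 90 were added after their values were seen. The 67 lists and their members were chosen with earlier results of these data known. Gene names come from Swiss-Prot in the table and from RefSeq, in which 194 of the 299 were found.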

Additional observations from a re-analysis of the deposited data

Results flagged for a closer look

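The cultivar difference itself changed between stages, by a test of the difference in the fit of all 36 libraries (edgeR, log2 scale), for the following genes, among those chosen by the size of this change or given by identifier. All values are the difference at S6 minus that at the other stage, and no cause was tested.

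Against S5, the difference at S6 was smaller for the anthocyanin and flavonoid genes. The change was −5.52 for UFGT (VIT_16s0039g02230), −5.13 for the anthocyanin methyltransferase VIT_01s0010g03510, −3.23 for leucoanthocyanidin dioxygenase (VIT_02s0025g04720), −3.2 for the flavanone 3-hydroxylase VIT_04s0023g03370 and −2.98 for VIT_02s0033g00450, described as MYB114. It was −1.52 for dihydroflavonol reductase (VIT_18s0001g12800), and −1.98 and −2.22 for the chalcone isomerases VIT_13s0067g02870 and VIT_13s0067g03820. The chalcone synthases VIT_05s0136g00260 and VIT_14s0068g00930 changed by −2.72 and −2.53. VIT_16s0022g01070, a chalcone synthase to the study and Stilbene synthase 5 in Swiss-Prot, changed by −3.24, with few reads at S5. Glutathione S-transferase F11 (VIT_04s0079g00710) changed by −5.95.

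Among tannin and flavonol genes the change against S5 was −1.83 for leucoanthocyanidin reductase VIT_01s0011g02960, 1.23 for VIT_17s0000g04150 of the same enzyme, −1.2 for MYBPA1 (VIT_15s0046g00170) and −2.09 for MYB12 (VIT_07s0005g01210). MYB14 (VIT_07s0005g03340) changed by 1.68, from below to above the parent. Phenylalanine N-monooxygenase VIT_13s0106g00280, with no read in ‘Summer Black’ at S5, changed by −5.66, a fitted value that is no bound.

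Genes high in ‘Summer Black’ at S5 alone changed upward. They were gibberellin 2-beta-dioxygenase 8 VIT_06s0004g06790 (6.09), VIT_16s0022g01210, described as ODORANT1 (4.71), the NAC gene VIT_03s0038g03410 (4.56) and the Myb4-related VIT_14s0036g00460 (4.2). At S6 each had under 1 CPM in both cultivars.

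Against S7, the signed difference at S6 was higher for the lipid-binding gene VIT_04s0008g05640 (4.65), gibberellin 2-beta-dioxygenase 8 VIT_10s0116g00410 (2.67), the lectin receptor-like kinase VIT_16s0050g01920 (2.61), nitrate transporter 1.1 VIT_02s0154g00260 (2.58), the Myb4-related VIT_05s0049g01020 (1.68) and VIT_01s0011g02960 (1.01). In the lipid-binding, gibberellin dioxygenase, nitrate transporter and VIT_01s0011g02960 genes the bud sport was below the parent at both stages, by less at S6 than at S7. The change was −4.31 for terpene synthase 12 (VIT_12s0134g00030), −4.08 for germacrene D synthase (VIT_19s0014g04930) and −3.86 for the xyloglucan enzyme VIT_01s0026g00200.

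The ubiquitin gene VIT_19s0177g00070 changed by −9.26 against S5 and −10.2 against S7. Its S6 libraries had 0.0534, 8.65 and 0 CPM in ‘Nantaihutezao’ and 85.4, 0 and 15.1 CPM in ‘Summer Black’, which overlap, and its S6 call was lost without replicate a or c of ‘Nantaihutezao’ or replicate a of ‘Summer Black’, and also under DESeq2, glmTreat, the replicate block and the fit of all 36 libraries.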

How the results depend on the processing

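Higher and lower counts, 415 and 600, were within 1.5 times of these under every alternative but glmTreat, which tests against the fold threshold and gave 191 and 125. Upper-quartile scaling gave 391 and 630, DESeq2 403 and 544, no filter 475 and 656, and all 36 libraries 495 and 664. With 1 library left out they were 405 to 474 and 532 to 635. The replicate letters did not pair the samples (correlations of deviations 0.043, 0.07 and −0.097), and with the replicate block the counts were 414 and 582. The change in the cultivar difference from S5, 2018 genes, was 1922 to 1995 with 1 library left out and 2009 with the replicate block, and that to S7, 612 genes, was 566 to 616 and 610. Anthocyanidin reductase (VIT_00s0361g00040), at −0.05 and not called, turned to 0.0 without replicate a of ‘Nantaihutezao’ and to 0.05 without replicate a of ‘Summer Black’ (−0.16 to 0.05 over all 6), and the cause was not tested. Of 284 named tested genes 272 kept their side of the threshold under DESeq2, 151 under glmTreat and 253 to 270 with 1 library left out. Upper-quartile scaling moved the median of all genes from −0.00963 to −0.0433. Depth limits genes under about 1 CPM most.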
